A study of Mus musculus with 150 samples.

Results

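The region described here is a gene-dense segment of mouse chromosome 8 around Calr and Junb, chr8:84500000-85550000 (mm10, 1.05 Mb). It was taken by coordinate: all positions of the deposited chromosome 8 replication timing table between those ends, which are 211 of 25880 positions spaced 5 kb apart. All 211 held a value in all 12 columns of the table. Its left end lies 41.2 Mb from the nearer of the deletions that the study made on this chromosome.

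The study profiled CRISPR-edited mouse embryonic stem cells (mESC) by Repli-seq in 150 samples, of which 12 belong to chromosome 8. In Repli-seq, cells take up BrdU during DNA synthesis and are sorted by DNA content, and the BrdU-containing DNA from the early and the late fraction is sequenced. Each clone here has an early and a late library, which the authors combined into a replication timing score per allele. A higher score means earlier replication.

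The chromosome 8 clones are hybrid cas/129 mESC, for which the growth protocol gives DMEM with 2i and LIF, and they form 3 genotypes of 2 clones each. RexTrim clones D3 and D8 carry both deletions, chr8:43176771-43181949 and chr8:43302260-43332339. Rex1 clones D1 and E3 carry the deletion at chr8:43302260-43332339, which overlaps Zfp42, the gene of the pluripotency marker Rex1. Trim clones D9 and E9 carry the deletion at chr8:43176771-43181949, which overlaps Triml1 and Triml2. All 6 clones are edited, and no unedited chromosome 8 profile is among the samples analysed here. The allele columns are named svim, the 129 parent, and CAST, written cast here, and which allele carries an edit is not labelled. Replicates are clones as labelled, so p-values measure the spread between these clones, which may be partly technical. In limma that spread is moderated, which draws it toward a value shared by all rows of the fit. Each SE given with a limma result is moderated in this way. The files give no read depth and so no counting error.

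Mammalian chromosomes replicate in a set order, in domains whose timing differs between cell types. Gene-rich, GC-rich stretches with many active housekeeping genes usually replicate early in S phase, and gene-poor stretches late. Early domains usually hold many closely spaced initiation zones, so their timing profile is a plateau and not a single peak.

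The annotation (GRCm38, the mm10 build) placed 57 features in the segment, 40 of them protein-coding genes and 11 long noncoding RNA genes. Promoters are shown for the 2 genes that name the segment, both of which lie in its lowest-scoring stretch. Calr encodes calreticulin, a calcium-binding chaperone of the endoplasmic reticulum. Junb encodes a subunit of the AP-1 transcription factor. Each sequence is the 250 bases upstream of the gene start, 5′ to 3′ on the gene's strand, from RefSeq (GRCm38.p6), with each CG dinucleotide in capitals. The Calr promoter is chr8:84846932-84847181 (minus strand) and the Junb promoter is chr8:84978749-84978998 (minus strand).
Calr: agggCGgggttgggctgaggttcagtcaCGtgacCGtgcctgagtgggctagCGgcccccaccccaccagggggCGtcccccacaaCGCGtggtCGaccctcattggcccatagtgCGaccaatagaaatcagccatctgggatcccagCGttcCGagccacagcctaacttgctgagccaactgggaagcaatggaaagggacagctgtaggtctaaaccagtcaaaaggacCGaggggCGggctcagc
Junb: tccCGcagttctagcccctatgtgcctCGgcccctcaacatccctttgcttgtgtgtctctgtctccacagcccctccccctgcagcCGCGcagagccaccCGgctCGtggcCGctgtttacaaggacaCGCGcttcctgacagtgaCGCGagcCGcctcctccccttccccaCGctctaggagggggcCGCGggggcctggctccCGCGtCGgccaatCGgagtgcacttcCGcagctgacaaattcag

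The Calr promoter held 13 CG dinucleotides at a GC content of 62%, and the Junb promoter 20 at 66.4%. A search on both strands for the CCAAT box (CCAAT) and the GC box (GGGCGG) found 2 of each upstream of Calr, and 1 CCAAT box and 0 GC boxes upstream of Junb. Promoter sequences were matched for 32 of the 40 protein-coding genes. Their median was 11 CG dinucleotides, against 12 in 693 promoters of the rest of chromosome 8, and 56.3% of them held at least 10, against 58.3%. Their median GC content was 54.6%, against 58% in the others, so Calr and Junb both lay above the segment's median. The CCAAT box was present in 56.3% of the segment's promoters and in 35.6% of the others, and the GC box in 37.5% and 47.6%. These matches are descriptions of sequence and carry no test. The number of CG dinucleotides in the segment's promoters was thus close to that of the chromosome, although the segment holds many more genes per length than most of it.

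The segment replicated early on both alleles of all 6 clones. All 2532 of its 2532 values were above 0. On svim its mean score was 1.97 in RexTrim D3 and 1.73 in RexTrim D8, 2.70 in Rex1 D1 and 2.54 in Rex1 E3, and 2.17 in Trim D9 and 1.88 in Trim E9. On cast it was 1.96 in RexTrim D3 and 1.87 in RexTrim D8, 2.63 in Rex1 D1 and 2.47 in Rex1 E3, and 2.16 in each of Trim D9 and Trim E9. The Rex1 clones were the highest on each allele and did not overlap the other genotypes, while the RexTrim and Trim clones overlapped on svim and not on cast. Over the 6 clones the mean was 2.17 ± 0.38 on svim and 2.21 ± 0.29 on cast (SD, n = 6).

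Ranked within its own profile, the segment mean stood above 70.1% to 82.3% of the positions of chromosome 8, with a mean of 76.2% over the 12 columns. It was thus early and well below the earliest positions. Cut into tiles of the same length, chromosome 8 gave 119 other tiles free of the deletions, and 18 of them had a mean above the segment's 2.19. The midpoints of 39 protein-coding genes fell in the segment, against a median of 5 per tile and of 15.5 in the 36 tiles with a mean over 1.5. A single tile held at least as many genes, the fullest having 55. The segment was therefore among the most gene-dense tiles of the chromosome and not among its earliest.

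**Figure D1:**
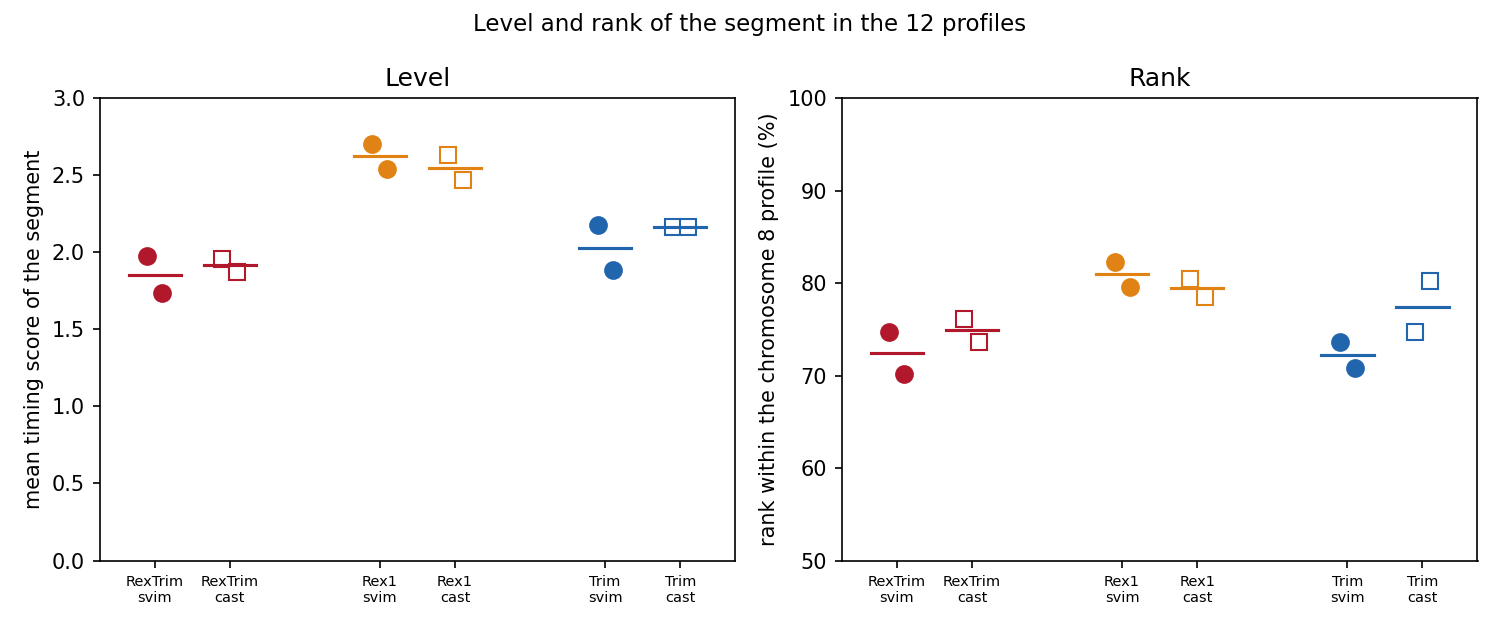
Mean timing score of the segment (left, score units) and its rank within the same chromosome 8 profile (right, percent of positions below it, axis starting at 50) for each clone and allele. Filled circles are svim, open squares are cast, and bars are means of 2 clones. The Rex1 clones sit between 2.47 and 2.70, above all RexTrim and Trim values, and all ranks lie between 70.1% and 82.3%.

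The genes elsewhere on the chromosome that served for comparison set the scale. Of the genes listed as early, Pcm1, a centriolar satellite protein gene, averaged 2.06 over the 12 columns, Asah1, which encodes acid ceramidase, 1.79, and Frg1 1.69. Of those listed as late, Csmd1, a very long gene for a membrane protein, averaged -2.93 and Sgcz, a sarcoglycan gene, -2.27. Dlc1, a GTPase-activating protein gene listed as late, averaged 1.38 and so went against its listing.

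The segment was a plateau with a shallow dip on its left side and a rise to the right. The lowest 50 kb window, 84800001 to 84850000, averaged 1.80 over the 12 columns and overlaps Nfix, Dand5, Gadd45gip1 and Calr among others. The highest, 85500001 to 85550000, averaged 2.64 and overlaps Gpt2 and Dnaja2. In the lowest window svim scored 1.59 in RexTrim D3 and 1.06 in RexTrim D8, 2.69 in Rex1 D1 and 2.27 in Rex1 E3, and 1.55 in Trim D9 and 1.53 in Trim E9. The Rex1 clones were high there and RexTrim D8 was the lowest. Its cast values were 1.39 and 1.45 in the RexTrim clones, 2.43 and 1.86 in the Rex1 clones, and 1.93 and 1.89 in the Trim clones. On cast Rex1 E3 fell below both Trim clones, so the genotypes overlapped.

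The 7 lowest windows form 1 stretch, 84650001 to 85000000, with means of 1.80 to 1.96, and the 7 highest form another, 85200001 to 85550000, with means of 2.42 to 2.64. The low stretch overlaps 20 different protein-coding genes and the high stretch 7. The window overlapping the most genes, 85050001 to 85100000 with 7, lay between them and averaged 2.18. In 11 of the 12 columns the lowest position lay between 84700000 and 85000000, and in 9 of 12 the highest lay right of 85200000. The exception among the minima was Rex1 D1 on svim, whose lowest position was 85200000. Between 84700000 and 85000000 the mean was below that of the rightmost 250 kb in 12 of 12 columns, and below that of the leftmost 250 kb in 11 of 12. Trim E9 on cast was the exception to the second comparison, with 1.96 in the middle against 1.95 on the left.

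The depth of the dip varied between columns. The spread between the highest and lowest position of the segment was widest in RexTrim D8 on svim, at 1.42, and narrowest in Trim E9 on cast, at 0.55. Neighbouring positions differed by at most 0.03, so the deposited values are smooth and positions are not independent measurements. Across the 211 positions the svim and cast curves of a clone correlated at 0.59 to 0.95. All 66 pairs of columns had a median correlation of 0.71, with a lowest of -0.31, a highest of 0.99 and 2 pairs below 0. These correlations describe smoothed curves that share a reference and a scaling. The curve least like the mean of the others was Rex1 D1 on svim, at 0.38.

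**Figure D2:**
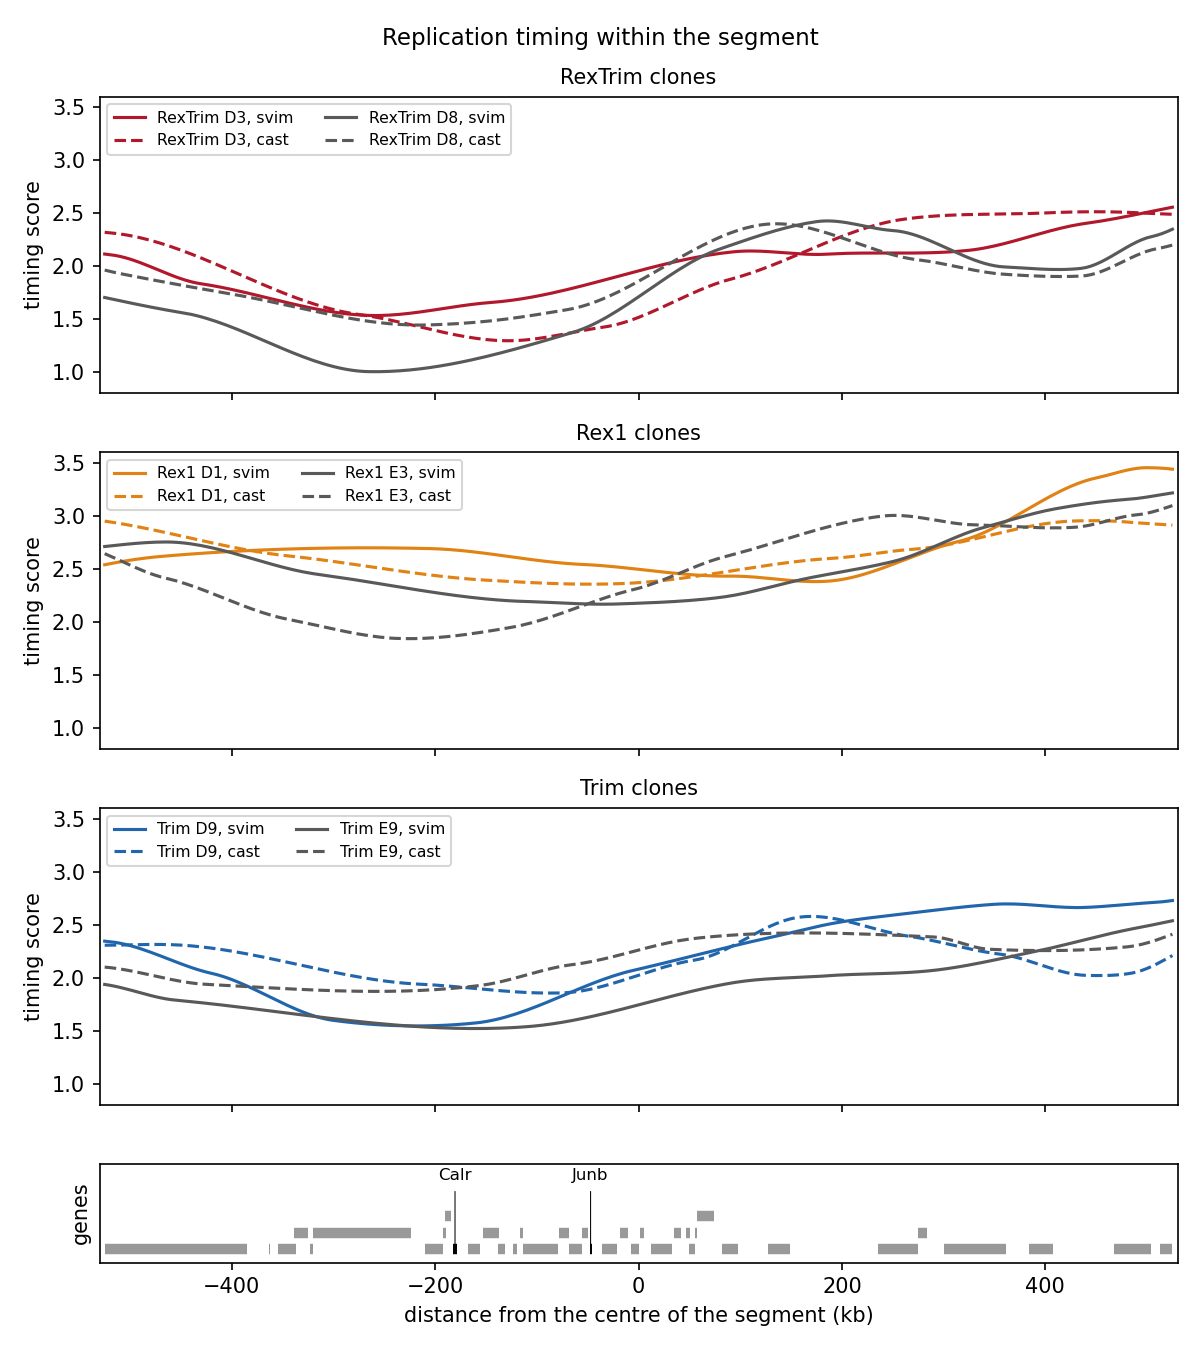
Timing score (score units) against distance from the centre of the segment (kb) in RexTrim, Rex1 and Trim clones, with svim as solid and cast as dashed lines, and protein-coding genes as bars below. The lowest point lies left of the centre in 11 of 12 curves, in the stretch that holds Calr and Junb, and the 7 highest windows lie at the right end.

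The 40 genes took their scores from this shape. Scores of a gene are the mean of the positions in its body, or the nearest position for the 6 genes too short to hold one, so neighbouring genes share most of their signal. The 12-column means ran between 1.80 and 2.67, with a median of 2.00, and the highest was that of Dnaja2, a gene of an Hsp40 co-chaperone.

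All 6 transcription factor genes lay in the low stretch, at 1.83 to 2.00. Nfix, a nuclear factor I gene, averaged 1.85, Klf1, the erythroid Krüppel-like factor, 1.83, and Lyl1, a basic helix-loop-helix factor of blood cells, 1.91. Junb scored 1.94, Nacc1, a BTB-domain repressor, 1.96, and Ier2, an immediate early gene, 2.00. At Junb, svim scored 1.84 and 1.45 in RexTrim D3 and D8, 2.54 and 2.17 in Rex1 D1 and E3, and 1.95 and 1.64 in Trim D9 and E9. Its cast values were 1.41 and 1.65 in RexTrim, 2.36 and 2.19 in Rex1, and 1.90 and 2.15 in Trim. On both alleles the Rex1 clones were the highest at Junb. RexTrim and Trim overlapped on svim and did not on cast.

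The genes for DNA replication and recombination lay in the low stretch and on the right side. Orc6, a subunit of the origin recognition complex that marks replication origins, scored 2.44 and lay on the right. In the low stretch Syce2, a synaptonemal complex protein, scored 1.81, and Rnaseh2a, the catalytic subunit of RNase H2, 1.90. Each of these averages was above 0.

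The 4 translation genes scored 1.80 to 2.18. They are Gadd45gip1, a mitochondrial ribosomal protein, Farsa, a phenylalanyl-tRNA synthetase subunit, Trmt1, a tRNA methyltransferase, and Dhps, the deoxyhypusine synthase that modifies eIF5A. Dhps was the highest of them, at 2.18.

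The 7 genes of protein folding, transport and the lysosome scored 1.80 to 2.44. Calr was the lowest, and its svim values were 1.62 and 1.08 in RexTrim D3 and D8, 2.68 and 2.25 in Rex1 D1 and E3, and 1.56 and 1.52 in Trim D9 and E9. On cast Calr scored 1.35 and 1.46 in RexTrim, 2.42 and 1.87 in Rex1, and 1.91 and 1.90 in Trim. Rex1 stood above both other genotypes at Calr on svim and overlapped Trim on cast. Vps35, a retromer subunit, was the highest of the list at 2.44, and Dnase2a, a lysosomal nuclease, Hook2, a microtubule linker, Get3, the tail-anchored protein targeting factor listed as Asna1 in older annotation, Tnpo2, a nuclear import receptor, and Man2b1, a lysosomal mannosidase, lay between them.

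The metabolic genes were Gcdh, glutaryl-CoA dehydrogenase, at 1.81, Prdx2, a peroxiredoxin, at 1.92, and Gpt2, a mitochondrial alanine aminotransferase, at 2.61. The 6 tissue-restricted genes, whose known roles lie mostly outside stem cells, scored 1.80 to 2.45. They are Cacna1a, a neuronal calcium channel subunit, Dand5, a Nodal antagonist of the embryonic node, Mast1, a neuronal kinase, Rtbdn, a retinal protein, Best2, an epithelial anion channel, and Mylk3, the cardiac myosin light chain kinase. Their range was close to those of the DNA replication and protein folding lists. In 5 of the 6 lists the rightmost gene had the highest score, and the exception was the transcription factor list, led by its leftmost gene, Ier2.

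The allele difference of the segment was small and had no settled sign. The svim minus cast score was 0.01 in RexTrim D3 and -0.14 in RexTrim D8, 0.07 in Rex1 D1 and 0.08 in Rex1 E3, and 0.01 in Trim D9 and -0.28 in Trim E9. Svim was thus above cast in 4 of 6 clones, and Trim E9 had the widest gap, with cast above svim. The mean difference was -0.04 ± 0.10 (moderated SE, n = 6 clones), with a limma adjusted p of 0.853 and an exact two-sided sign permutation p of 0.625, where the smallest possible is 0.0313. The SD of the 6 clone differences was 0.14. Without Trim E9 the mean turned to 0.01, so 1 clone set its sign.

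Over the 50 kb windows, limma called 0 of 21 in the segment for svim minus cast, and 0 had an unadjusted p under 0.05. Over the whole chromosome 24.4% of 2521 windows were called, 343 of them higher and 272 lower on svim. The window differences in the segment ran between -0.19 and 0.26, with cast higher in 17 of 21 windows and the smallest adjusted p at 0.15. Of the 119 other tiles, 100 had a larger allele difference in size than the segment. Among genes, limma called 0 of 40 in the segment and 15% of 1041 on the chromosome. Gpt2, Dnaja2 and 4921524J17Rik, at the right end, were the 3 genes with svim above cast. Dnaja2 was the 1 gene with an unadjusted p under 0.05, with a difference of 0.25 ± 0.11 (moderated SE) and an adjusted p of 0.165 in limma.

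The svim and cast curves were not identical within a clone. At single positions the alleles of a clone differed by up to 0.45 in RexTrim D3 and up to 0.66 in Trim D9, the narrowest and widest of the 6 clones. Their minima lay up to 220 kb apart, in Rex1 D1. The differences changed sign along the segment within each clone, with svim above cast at 43.1% and 35.5% of positions in RexTrim D3 and D8, 63.5% and 62.1% in Rex1 D1 and E3, and 48.3% and 12.8% in Trim D9 and E9.

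The edited region itself differed between alleles far more. Over both deletions with 100 kb on either side, svim minus cast was -3.81 in RexTrim, -2.67 in Rex1 and 0.20 in Trim, against -0.06, 0.07 and -0.13 in the Calr and Junb segment of the same clones. In the segment the RexTrim and Rex1 alleles thus lay within 0.14 of each other in every clone.

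Between genotypes, the segment scored lower in RexTrim than in Rex1 and higher in Rex1 than in Trim, but no test over the whole segment passed. These comparisons share clones and are given side by side. RexTrim averaged 1.85 on svim and 1.91 on cast, Rex1 2.62 and 2.55, and Trim 2.03 and 2.16. RexTrim minus Rex1 was -0.77 ± 0.29 on svim (limma adjusted p = 0.116) and -0.63 ± 0.29 on cast (limma adjusted p = 0.219), with moderated SE and 2 clones each. RexTrim minus Trim was -0.17 ± 0.29 on svim (limma adjusted p = 0.917) and -0.25 ± 0.29 on cast (limma adjusted p = 0.895). Rex1 minus Trim was 0.59 ± 0.29 on svim (limma adjusted p = 0.238) and 0.39 ± 0.29 on cast (limma adjusted p = 0.421). The SD between the 2 clones was 0.17 on svim and 0.06 on cast in RexTrim, and 0.11 on each allele in Rex1. In Trim that SD was 0.21 on svim and 0.0011 on cast.

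The exact two-sided permutation test of 2 against 2 clones cannot go below 0.333, which it gave wherever the clones did not overlap. RexTrim minus Trim on svim, where they overlapped, gave an exact permutation p of 0.667. The within-clone difference svim minus cast differed by -0.14 between RexTrim and Rex1, by 0.07 between RexTrim and Trim and by 0.21 between Rex1 and Trim, with limma adjusted p of 0.942, 0.999 and 0.868. Clone means over both alleles had an SD of 0.33, while the alleles of a clone differed by 0.10 on average in size. That SD includes the differences between genotypes, and the 2 Trim clones differed by 0.0015 on cast, less than the 0.28 between the alleles of Trim E9.

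By window, 3 of 21 were called in RexTrim minus Rex1 on svim, against 6.39% called over all 2521 windows. An unadjusted p under 0.05 was found in 14 of 21, and in 767 of all 2521. The 3 called windows are contiguous, 84650001 to 84800000, over Ier2, Nacc1, Trmt1, Lyl1 and most of Nfix, with differences of -1.16, -1.25 and -1.25 (limma adjusted p = 0.0434, 0.0357 and 0.0373). In the middle one, 84700001 to 84750000, svim scored 1.57 and 1.05 in RexTrim D3 and D8, against 2.70 and 2.42 in Rex1 D1 and E3. These calls depended on the setting: 0 of 21 windows were called with the 10th and 90th percentiles of the columns matched (limma adjusted p of 0.104 to 0.135), and 0 when only RexTrim and Rex1 clones were fitted. After quantile normalization the 3 windows had limma adjusted p of 0.0550, 0.0401 and 0.0401, and with medians matched all 3 passed, at 0.00131 or less. The calls were also not stable when 1 clone was left out, which leaves a genotype with a lone clone. RexTrim minus Rex1 over the whole segment on svim then ran between -0.89 and -0.65.

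In the other comparisons limma called 0 of 21 windows. The share called over the chromosome was 0% for RexTrim minus Rex1 on cast, where 4 windows of the segment had an unadjusted p under 0.05, and 0% for its svim minus cast, where 0 had. It was 0.754% for RexTrim minus Trim on svim, 0% on cast and 0.674% for svim minus cast, with 0 windows of the segment at an unadjusted p under 0.05 in each. For Rex1 minus Trim it was 5.04% on svim, 0.754% on cast and 0.476% for svim minus cast, where 10, 3 and 3 windows of the segment had an unadjusted p under 0.05. Over all 2521 windows these unadjusted counts were 606, 530 and 270, and 607 for RexTrim minus Rex1 on cast. In sign the segment was uniform: all 21 windows were lower in RexTrim than in Rex1 and higher in Rex1 than in Trim, on each allele, though adjacent windows share smoothed signal.

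The genotype shift of the segment was set beside the scale of each profile. Every column had an interquartile range of 4.60 over chromosome 8, so the columns were matched on that measure before deposit, but their tails and medians were not. The 90th percentile averaged 2.63 in RexTrim, 3.12 in Rex1 and 2.89 in Trim columns, the same order as the segment means over both alleles, 1.88, 2.58 and 2.09. RexTrim minus Rex1 was -0.49 at the 90th percentile and -0.70 in the segment. RexTrim minus Trim was -0.26 and -0.21, and Rex1 minus Trim 0.23 and 0.49. The genotype differences of the segment thus had the sign of those of the early tail of the whole chromosome.

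The chromosome medians moved the other way, with RexTrim at -0.15, Rex1 at -0.85 and Trim at -0.32. At the late end the order was again that of the segment, as the 10th percentile averaged -3.22 in RexTrim, -2.83 in Rex1 and -3.10 in Trim. Rex1 columns thus had the highest genotype means at both ends. The size of their median gap rested mostly on D1, at -1.12 on svim and -1.24 on cast. E3, at -0.47 and -0.58, was the next lowest on each allele but lay near Trim E9, at -0.43 and -0.52. What part of the segment's shift this difference in shape accounts for was not tested.

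Among the 36 other early tiles, RexTrim minus Rex1 was below 0 in 24, with a median of -0.28 and values between -0.83 and 0.83, and 5 exceeded the segment's -0.70 in size. RexTrim minus Trim was below 0 in 32 of 36 early tiles, with a median of -0.19 against the segment's -0.21. Rex1 minus Trim was below 0 in 15 of 36 early tiles, with a median of 0.06 and values between -1.03 and 0.86. In size 10 of 36 exceeded the segment's 0.49, some of them with the opposite sign. Over the 12 columns the segment mean spanned 0.97, against a median span of 0.87 in the early tiles, of which 13 were wider. The segment was thus within the range of other early tiles in each of these measures.

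**Figure D3:**
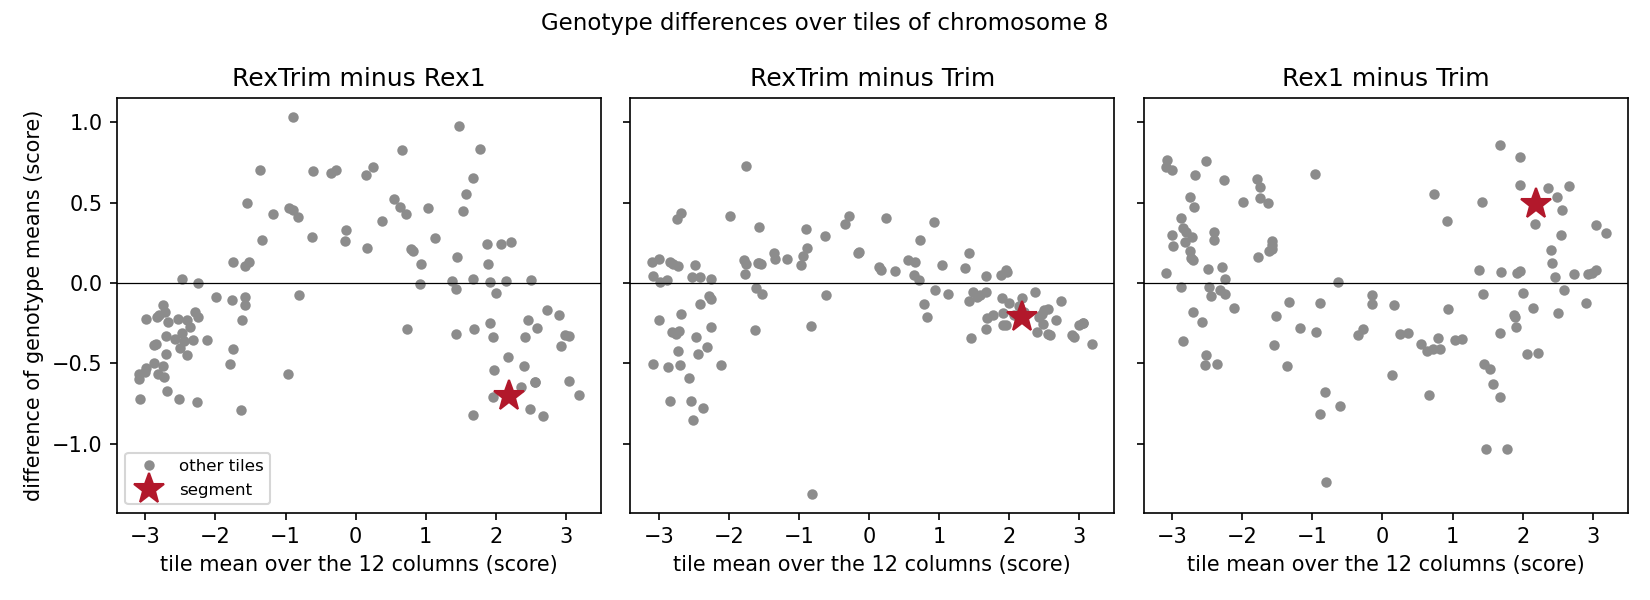
Difference of genotype means (score units) against the mean over the 12 columns (score units) for tiles of 1.05 Mb on chromosome 8 without a deletion, for RexTrim minus Rex1, RexTrim minus Trim and Rex1 minus Trim. The star is the Calr and Junb segment, at -0.70, -0.21 and 0.49, and grey points are the 119 other tiles, of which 72, 67 and 58 lie below 0.

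The spread of the 12 segment means depended on the scaling. It was 0.97 as deposited, 0.52 with the 10th and 90th percentiles of the columns matched, 0.78 after quantile normalization, and 2.23 with medians and interquartile ranges matched outside the segment. With percentiles matched, the genotype means were 2.12 in RexTrim, 2.35 in Rex1 and 2.09 in Trim, so RexTrim no longer lay below Trim. With medians matched, which moved the genotypes' medians by the differences above, they were 1.57 in RexTrim, 3.00 in Rex1 and 1.99 in Trim. RexTrim minus Rex1 then passed the test on both alleles, at -1.51 on svim (limma adjusted p = 0.0036) and -1.36 on cast (limma adjusted p = 0.0300). The Rex1 genotype mean was the highest under each of these scalings. On cast, however, Rex1 no longer stood clear of Trim after quantile normalization, with 2.29 in Rex1 E3 against 2.31 in Trim E9, or with percentiles matched, where both were at 2.24.

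**Figure D4:**
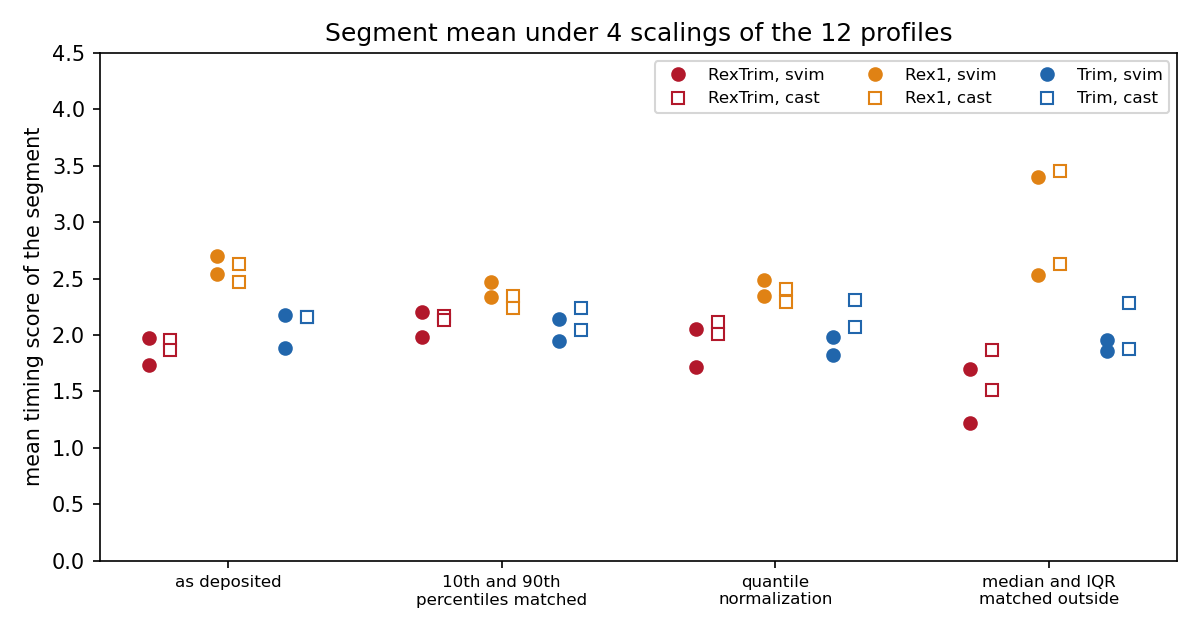
Mean timing score of the segment (score units) in each clone and allele under 4 scalings of the 12 profiles, with RexTrim, Rex1 and Trim side by side. Filled circles are svim and open squares cast. The values span 0.97 as deposited, 0.52 with percentiles matched, 0.78 after quantile normalization and 2.23 with medians matched outside the segment.

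The ground beside the segment was examined after its values were seen, so what follows is a description. The segment lies within an early run that extended between 82965000 and 87245000 in the mean of the 12 columns (all positions above 0). Over the 12 columns the left 500 kb averaged 2.19, level with the segment, and the right 500 kb averaged 1.93. The alleles were less alike on the left, where svim minus cast averaged -0.33 in RexTrim, -0.46 in Rex1 and -0.15 in Trim. On the right, RexTrim averaged 2.21 on svim and 2.05 on cast, Rex1 1.38 and 1.17, and Trim 2.42 and 2.35. Rex1 was the lowest genotype in this average, but not at once beyond the segment. RexTrim minus Rex1 was still below 0 in 3 of the 10 windows on svim and 4 on cast, and Rex1 minus Trim above 0 in 3 of 10 on each allele, by up to 0.63.

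The drop lay at 85800001 to 86050000, over the right end of Itfg1 and most of Phkb, a subunit gene of phosphorylase kinase. There svim scored 1.93 and 1.88 in RexTrim D3 and D8, -0.41 and 0.45 in Rex1 D1 and E3, and 1.87 and 2.35 in Trim D9 and E9. On cast the values were 1.82 and 1.77 in RexTrim, -0.68 and 0.17 in Rex1, and 1.84 and 2.12 in Trim. Rex1 did not overlap the other genotypes on either allele. The ends of the stretch were set by the windows called in this flank, all of them in comparisons with Rex1. This separation is therefore no separate support. The early run ended between 85855000 and 85965000 in the 4 Rex1 columns, and at 86190000 or beyond in the 4 RexTrim and 4 Trim columns.

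Of the 10 windows in the right 500 kb, limma called 4 for RexTrim minus Rex1 on svim and 0 on cast, with 6 and 5 at an unadjusted p under 0.05. It called 5 for Rex1 minus Trim on svim and 4 on cast. All of these called windows had Rex1 later. With the 10th and 90th percentiles matched, each of these 4 counts was 5, and after quantile normalization they were 4, 0, 4 and 3, all with Rex1 later. With medians matched, RexTrim minus Rex1 had 7 called windows on each allele, 4 above 0 and 3 below, and its median over the 10 windows was 0.04 on svim and 0.21 on cast, against 0.78 and 0.93 as deposited. Rex1 minus Trim then had 5 called windows on svim, of which 1 was above 0, and 4 on cast, all below 0. As deposited, the shares called over all 2521 windows in the same 4 comparisons were 6.39%, 0%, 5.04% and 0.754%. Calls over the chromosome, summed over all genotype comparisons with the segment as 1 more row, were 355 as deposited. They were 827 with percentiles matched, 434 after quantile normalization and 3366 with medians matched.

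**Figure D5:**
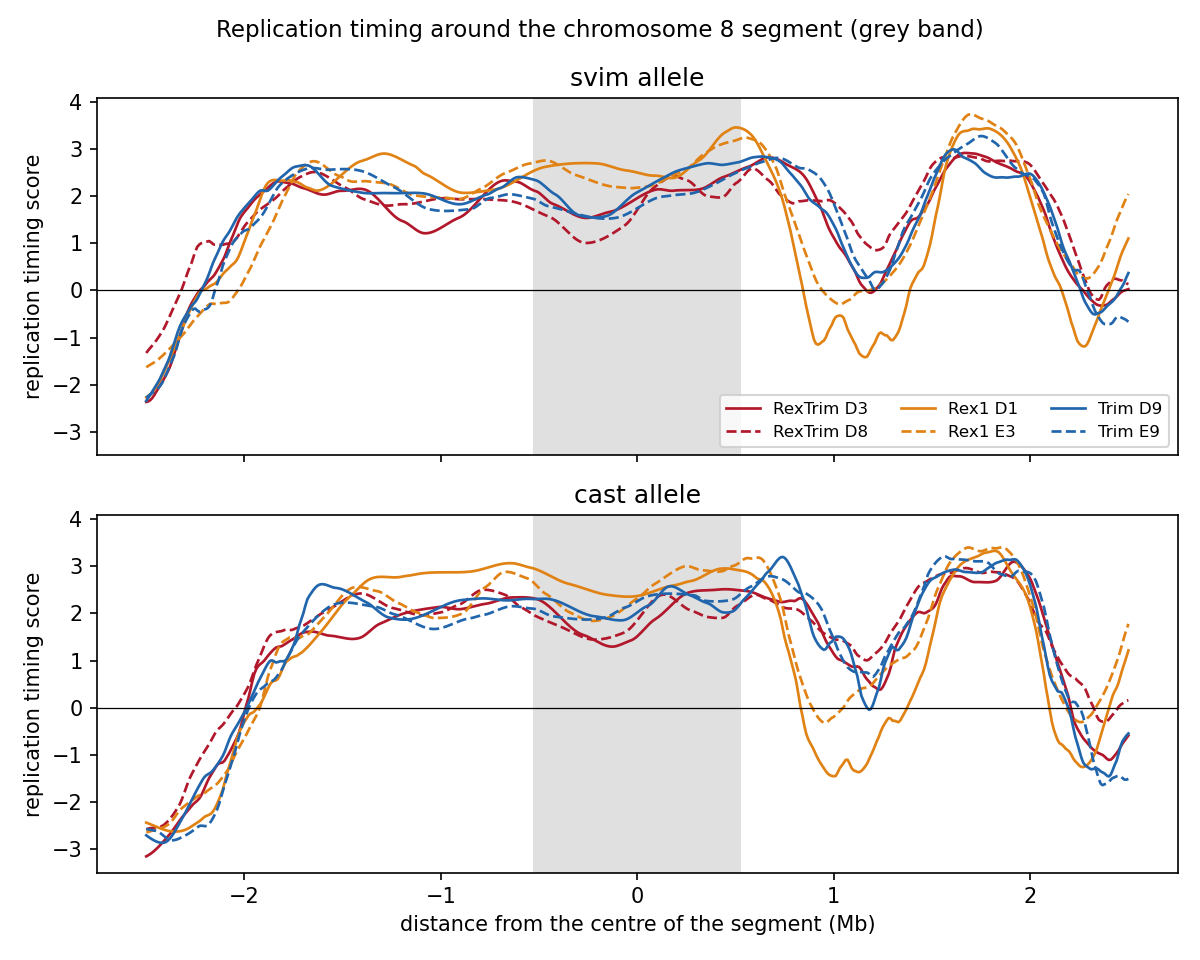
Timing score (score units) against distance from the centre of the segment (Mb) on svim (top) and cast (bottom), with 1 line per clone and the segment as the grey band. The 12 curves stay above 0 across the band, and the Rex1 curves drop below 0 to its right, between 85855000 and 85965000, where the RexTrim and Trim curves are still early.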

How the data were processed

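The deposited chromosome 8 table holds a replication timing score that the authors made from early and late S-phase reads, with 1 value per position and allele. The build is mm10, and the tools named are Bowtie2, SAMtools and bedtools, per the submitters' processing notes. The deposited table's name marks interquartile-range normalization. Tool versions, smoothing and log base were not given in the sources used here. Differences are therefore in score units. The chromosome 16 table was not used, and 0 chromosome 8 columns lacked a listed sample. Columns were grouped by the labelled genotype.

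Segment, window (50 kb, at least 50 percent of positions kept) and gene scores are means of positions, with positions inside the deletions left out. They were fitted with limma 3.58.1 in R 4.3.3 (lmFit, eBayes), two-sided. All 3 genotypes were in 1 fit per allele, and svim minus cast was fitted over 6 clones. Benjamini-Hochberg adjustment ran over all 2521 windows plus the segment, or over all 1041 genes, with a threshold of 0.05. Exact permutation tests over clones were added. The fits were also run on simulated data with independent noise in each window and column. The condition was that the median estimate lay close to the planted shift. The deposited values are smoothed, so this was no check of error rates in them. Tables and promoter counts were made in Python 3.11.15 with pandas 2.3.3 and numpy 2.4.6. Named genes are those of 6 role lists that the annotation places in the segment, with comparison genes elsewhere, the highest and lowest window, and all windows called. The members and lists were chosen with earlier results of these data known. Alternatives covered scaling, window size, the clones fitted and each clone left out. One gene of the role lists is not reported here.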

Additional observations from a re-analysis of the deposited data

How the results depend on the processing

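Of 177 alternative values, 161 were counted as unchanged. For differences with a test, this meant the same direction and the same side of the threshold. Mean scores and counts of called windows or genes have no such test. They were counted as unchanged when close to the main value, such as 2 called windows against 3 after quantile normalization. Some alternatives could not change the estimate, such as using only complete positions, because every position of the segment was complete. With medians and interquartile ranges matched outside the segment, RexTrim minus Rex1 passed the test at -1.51 on svim and -1.36 on cast. The RexTrim minus Trim difference in svim minus cast turned to -0.056. Windows of the segment called between genotypes numbered 53 against 3 as deposited. These counts are summed over all genotype comparisons on svim, cast and svim minus cast. The same sum over the whole chromosome, with the segment as 1 more row, was 3366 against 355. With the 10th and 90th percentiles matched, RexTrim minus Trim turned to 0.053 on svim and 0.0076 on cast, and 0 windows were called. RexTrim minus Rex1 shrank there to -0.31 on svim and -0.14 on cast, and after quantile normalization to -0.53 and -0.29. These smaller values were counted as unchanged because the test did not pass as deposited either. Fitting only the 2 genotypes compared left 0 windows called. Leaving out 1 clone at a time gave 0 to 5 called windows (0 without RexTrim D8, Rex1 D1, Trim D9 or Trim E9, 5 without Rex1 E3), a svim minus cast mean of -0.063 to 0.0076 (above 0 without Trim E9) and a RexTrim minus Trim difference in svim minus cast of -0.073 to 0.22 (at -0.0029 without RexTrim D3 and -0.073 without Trim E9). The lone clone of a genotype was then assumed to vary like the others. The causes were not tested. The 0 windows and 0 genes called for svim minus cast stayed at 0 under all alternatives run for them. Between genotypes, no paired analysis was possible because the labels give clone names, not replicate numbers, and the names mark different clones in each genotype. The alleles were paired, as svim minus cast was taken within each clone. Read depth is unknown, so the precision rests on 2 clones per genotype and on the spread that limma shares over all rows.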
